A study of Mus musculus with 7 samples.

Results

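Lactate dehydrogenase interconverts pyruvate and lactate in the cytosol, and the pyruvate dehydrogenase complex commits pyruvate to the mitochondria. The transcripts for these steps were followed in the soleus, a slow postural muscle of the hindlimb. The set holds 5 genes, taken by their gene symbol in the platform annotation from an array of 223 probes, of which 205 carry 1 symbol. Each of the 5 genes has 1 probe. They are Ldha, Ldhb and Ldhc, which encode the lactate dehydrogenase subunits A, B and C, Pdha1, which encodes the alpha subunit of the pyruvate dehydrogenase complex, and Mdh2, which encodes mitochondrial malate dehydrogenase. All 7 samples form 1 group: soleus of 129/SV mice deficient for tenascin-C (Tnc, an extracellular matrix glycoprotein), labelled null and kept as cage controls. The labels used here give no age, sex or allele design, and no wild-type array was analysed here, so the values cannot show what the loss of Tnc does. The series' design text calls the samples biological replicates. The title of replicate 1 carries C16 and the other 6 titles carry C15. Replicate numbers follow accession order and only name the arrays.

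As background, lactate dehydrogenase is a tetramer. The A subunit predominates in fast glycolytic muscle and is associated with lactate formation, the B subunit predominates in heart and oxidative muscle and is associated with lactate use, and the C subunit is the form of the testis and sperm. Pdha1 carries the sites at which the pyruvate dehydrogenase complex is switched off by phosphorylation, and Mdh2 oxidises malate to oxaloacetate in the citric acid cycle and in the malate-aspartate shuttle.

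A signal is given below as percent of the summed signal of its array, with the probe for 28S rRNA and 1 unnamed bright probe outside that sum. The 10th percentile of an array is called its floor, and a signal over 3 times the floor is called measurable. Probes differ in primer and target, so the signal of 1 gene is not set against that of another as an amount of transcript. The arrays differed in their floors: the floor lay between 0.04% and 0.08% on 6 arrays and at 0.15% in replicate 3, where 29 of the 223 probes were measurable against 42 to 70 on the others. Replicate 3 was lowest of the 7 arrays for 31 of the 38 probes measurable on all of the other 6 (81.6%), and its 28S rRNA signal was 0.37% against 3.48% to 49.7%. Its Tnc signal was 0.17%, and the Tnc probe was not measurable on any of the 7 arrays. Results are therefore given with and without replicate 3. The 28S signal also divides the other arrays, with replicates 1 and 2 at 3.48% and 3.79% and the other 4 between 24.1% and 49.7%. Slow-fibre markers Myh7 and Mb (2 of 5 listed genes had a probe) summed to between 15.2% and 22.0% on the 6 arrays and to 0.67% in replicate 3, where neither was at 0 and neither was measurable. In whole muscle, fewer cells of a type and less RNA per cell cannot be told apart.

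The promoters of the 3 lactate dehydrogenase genes are shown first because the isoforms gave unlike signals. The windows are RefSeq sequences of build GRCm38.p6, from 250 bases before to 50 bases after a transcript start, written 5′ to 3′ on the gene's strand. For Ldha and Ldhc the more upstream of 2 listed starts was used. Capitals mark ACGTG on either strand, a form of the core that hypoxia-inducible factors bind, and TGACGTCA, the cyclic AMP response element. GCGTG, another form of that core, is neither marked nor counted. Ldha lies at chr7:46845554-46845853 on the plus strand, Ldhb at chr6:142507908-142508207 on the minus strand and Ldhc at chr7:46861013-46861312 on the plus strand.
Ldha: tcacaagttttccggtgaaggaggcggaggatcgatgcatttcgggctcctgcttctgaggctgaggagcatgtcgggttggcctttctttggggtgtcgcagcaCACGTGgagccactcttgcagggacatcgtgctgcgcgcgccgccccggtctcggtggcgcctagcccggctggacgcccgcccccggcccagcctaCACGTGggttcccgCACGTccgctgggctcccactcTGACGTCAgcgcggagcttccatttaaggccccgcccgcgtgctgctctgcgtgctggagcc
Ldhb: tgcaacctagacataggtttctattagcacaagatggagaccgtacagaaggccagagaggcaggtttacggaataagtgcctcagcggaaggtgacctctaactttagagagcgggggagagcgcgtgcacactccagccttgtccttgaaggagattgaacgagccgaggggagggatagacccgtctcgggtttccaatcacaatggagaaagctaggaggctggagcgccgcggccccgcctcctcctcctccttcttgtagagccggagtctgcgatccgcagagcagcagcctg
Ldhc: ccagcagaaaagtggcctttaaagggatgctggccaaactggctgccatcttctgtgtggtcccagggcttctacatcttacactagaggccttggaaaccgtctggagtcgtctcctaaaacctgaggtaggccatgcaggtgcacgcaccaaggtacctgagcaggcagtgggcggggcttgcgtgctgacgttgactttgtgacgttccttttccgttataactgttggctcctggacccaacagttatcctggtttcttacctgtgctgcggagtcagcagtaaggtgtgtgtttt

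In the Ldha window ACGTG occurs at 3 places, of which 2 read CACGTG and so hold it on both strands, and TGACGTCA occurs at 1 place, starting 12 bases before the transcript start. The windows of Ldhb and Ldhc hold neither string. Both hold the unmarked form GCGTG, as does the Ldha window, so absence of a hypoxia core is not read from these counts. The window of Mdh2, not shown here, holds TGACGTCA at 1 place, starting 127 bases before the transcript start. That of Pdha1 holds neither ACGTG nor TGACGTCA. Of 32851 promoter windows of the same length, 19.6% hold ACGTG and 1.79% hold TGACGTCA on either strand. The array measured no binding, so these matches only describe the sequence. Hif1a, which encodes a hypoxia-inducible factor subunit, gave 0.06% to 0.09% on the 6 arrays and 0.18% in replicate 3 and was never measurable.

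Ldhb, the B subunit gene, was measurable on every array except replicate 3. It carried 2.48% of the array sum in replicate 1, 2.02% in replicate 2, 0.23% in replicate 3, 1.30% in replicate 4, 1.71% in replicate 5, 1.74% in replicate 6 and 2.92% in replicate 7. Replicate 7 was highest, replicate 4 was lowest among the other 6 arrays, and replicate 3 stood far below all of them. The mean was 1.77% ± 0.86 (SD, n = 7), and 2.03% ± 0.59 without replicate 3 (SD, n = 6). On these 6 arrays Ldhb lay 16.3 to 73.0 times above the floor and ranked between 9th and 20th of all probes. In replicate 3 it was at 1.53 times the floor and ranked 74th.

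Ldha stayed near the floor on every array. Its probe read 0.09%, 0.07%, 0.32%, 0.12%, 0.12%, 0.06% and 0.07% in replicates 1 to 7. Replicate 3 was the highest and did not overlap the others, but at 2.13 times its own high floor it was still not measurable. The other 6 readings were 1.2 to 1.8 times their floors and averaged 0.0883% ± 0.0264 (SD, n = 6), against 0.121% ± 0.091 over all arrays (SD, n = 7). Values are recorded in steps of 0.01%, so these readings lie few steps above the floor. A probe near the floor gives no measure of its transcript, and no absence of Ldha from the soleus can be read from it.

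Ldhc, the testis isoform, was bright in replicate 3. It carried 0.08% in each of replicates 1 and 2, 4.38% in replicate 3, 0.39% in replicate 4, 0.16% in each of replicates 5 and 6 and 0.10% in replicate 7. Replicate 3 was 11.2 times the highest of the other arrays, ranked 6th of all its probes and stood 29.2 times above its floor. Among the other 6 arrays the signal averaged 0.162% ± 0.118 (SD, n = 6) and was measurable in replicates 4 and 6 only, at 4.88 and 3.20 times. With the threshold at 5 times the floor only replicate 3 passed. The mean over all 7 arrays, 0.764% ± 1.60 (SD, n = 7), thus rests on 1 array, and this reading has no replicate check. Ldhc was not alone in this. Leaving out replicate 3 lowered its mean log2 signal from -2.16 to -2.88. For Pecam1 the mean fell from -1.69 to -2.48. For Lama3 and Myod1, named after their values were seen, it fell from -2.63 to -3.52 and from -3.06 to -3.84.

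The other testis genes named here were not measurable in replicate 3, where the floor was highest. Of the 3 listed germ cell markers Ldhc and Ccna1, a meiotic cyclin, had a probe, and neither was at 0. Their summed signal was 0.16% to 1.03% on the 6 arrays and 4.64% in replicate 3, of which Ccna1 gave 0.26%, or 1.73 times the floor. Ccna1 was measurable in replicates 4 to 7, at 0.36% to 0.86%. The following genes were named after their values were seen. Pdha2, the testis counterpart of Pdha1, read 0.19% in replicate 3, Adam2, a sperm surface protein, 0.16%, and Cyct, testis cytochrome c, 0.15%. The first 2 were at 1.27 and 1.07 times the floor and Cyct was at the floor itself, and none of the 3 genes was measurable on any array. The 5 endothelial markers, all with a probe and none at 0, summed to 0.45% to 1.27% on the other arrays and to 9.50% in replicate 3, of which Pecam1 gave 8.36%. In replicate 3 Tek, Kdr and Flt1 were not measurable, and Cdh5, at 4.0 times the floor, lay inside its range of 2.0 to 6.0 times on the other arrays. In percent, all 5 markers were highest in replicate 3, as were 70.4% of all probes. Cdh5 then read 0.60% against 0.10% to 0.38% on the other arrays. The part of other cells or of the array itself in the Ldhc reading was not tested.

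Pdha1, at the entry of pyruvate into the mitochondrial cycle, was measurable on 6 arrays. It carried 1.01%, 0.84%, 0.25%, 0.74%, 0.59%, 0.93% and 0.87% in replicates 1 to 7. The 6 arrays other than replicate 3 spanned 1.71-fold, and replicate 3 lay below all of them at 1.67 times its floor. The mean was 0.747% ± 0.258 (SD, n = 7), and 0.830% ± 0.148 without replicate 3 (SD, n = 6).

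Mdh2 varied less than Ldhb and Pdha1 in log2 signal over 7 arrays and without replicate 3. The margin to Pdha1 was not robust: without replicates 1 and 3 the SD was 0.275 for Mdh2 and 0.259 for Pdha1 (log2). The Mdh2 signal was 0.52%, 0.40%, 0.20%, 0.50%, 0.64%, 0.48% and 0.61% in replicates 1 to 7, again lowest in replicate 3. The mean was 0.479% ± 0.147 (SD, n = 7), and 0.525% ± 0.088 without replicate 3 (SD, n = 6), with a 1.60-fold range over these 6 arrays. They lay 6.25 to 15.3 times above the floor, against 1.33 times in replicate 3.

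**Figure D1:**
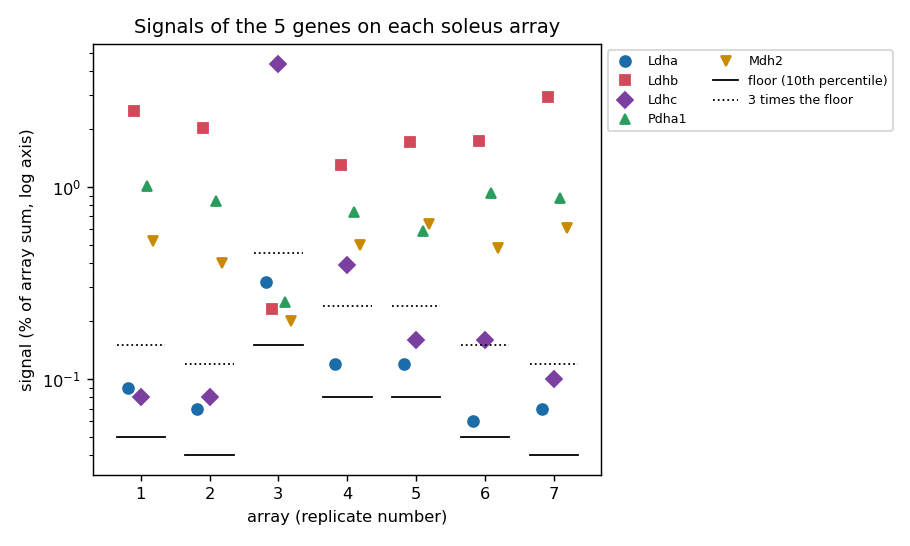
Signal of each of the 5 genes on each array, in percent of the array sum on a log axis, by replicate number; the solid bar is the floor of that array (10th percentile) and the dotted bar 3 times the floor. Ldhb, Pdha1 and Mdh2 lie above the dotted bar on every array except replicate 3, Ldha never does, and Ldhc reaches 4.38% in replicate 3.

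Thus 3 of the 5 genes, Ldhb, Pdha1 and Mdh2, were measurable on each of the 6 arrays, against 17% of all probes. Over all 7 arrays none of the 5 was, against 4.04% of all probes, and 1 of the 5, Ldhc, was so in replicate 3, against 13% of all probes. For the same 3 genes replicate 3 gave the lowest reading of all arrays, as it did for 14.3% of all probes and for the 81.6% of measurable probes given above. For Ldha and Ldhc it gave the highest reading, as it did for 70.4% of all probes. A low reading in replicate 3 was thus common among measurable probes and a high reading among all probes, and nothing particular to the 5 genes is read from these counts. The median probe was 0.99 higher in replicate 3 than the mean of the other arrays on the log2 scale. The difference of replicate 3 from the mean of the other 6 arrays was -3.09 for Ldhb, -1.71 for Pdha1, -1.38 for Mdh2, 1.91 for Ldha and 5.01 for Ldhc (log2). Relative to the median probe these were -4.08, -2.70, -2.36, 0.92 and 4.02, and each gene kept its place at the bottom or top of the arrays after median-centring and after quantile normalization. For the 38 measurable probes the median difference was -1.83 before centring.

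Among the 6 arrays other than replicate 3 the 28S division did not order Ldhb, Pdha1 or Mdh2 on the deposited scale. Replicates 1 and 2 fell inside or overlapped the range of replicates 4 to 7 for each of the 3 genes. For Pdha1 this depended on the scaling: as a multiple of the array median replicates 1 and 2 had 14.4 and 12.0, above the 5.36 to 10.9 of the other 4. Ldhb stood at 35.4 and 28.9 times the median in replicates 1 and 2, and at 10, 15.5, 17.4 and 36.5 times in replicates 4 to 7, so the groups of arrays overlapped. Ldhc did follow the division in percent, at 0.08% in each of replicates 1 and 2 and 0.10% to 0.39% in replicates 4 to 7. Of these readings only those of replicates 4 and 6 were measurable, and replicates 2 and 5 were both at 2 times the floor. The SD of log2 signal over the 6 arrays was 0.42 for Ldhb, 0.28 for Pdha1 and 0.25 for Mdh2, against a median of 0.34 over the 38 measurable probes. After median-centring of the 6 arrays these SDs were 0.75, 0.58 and 0.38.

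The spread between mice was then tested against that of probes at a like level, with limma's variance test over all 223 probes and Benjamini-Hochberg adjustment. Over 7 arrays the test called none of the 5 genes and 0% of all probes, with 17 probes at an unadjusted p under 0.05. Ldhc was among these 17, with an SD of 2.05 (log2) against a trend of 0.49 (limma adjusted p = 0.244). Ldhb had an SD of 1.23 against a trend of 1.09 (limma adjusted p = 0.885). Ldha had 0.82 against 0.61, Pdha1 0.69 against 0.81 and Mdh2 0.57 against 0.66, each with a limma adjusted p of 0.885. Without replicate 3 limma called none of the 5 genes and 2.24% of all probes, with 22 at an unadjusted p under 0.05. The SD of Ldhc was then 0.87 against a trend of 0.39 (limma adjusted p = 0.287), so it still lay above the trend without passing the adjustment. Over the alternatives tried its limma adjusted p ran from 0.068 to 0.929, and it was lowest without replicate 4. The trend of all 7 arrays includes the deviation of replicate 3, so a fall that bright probes share could not be called by this test.

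**Figure D2:**
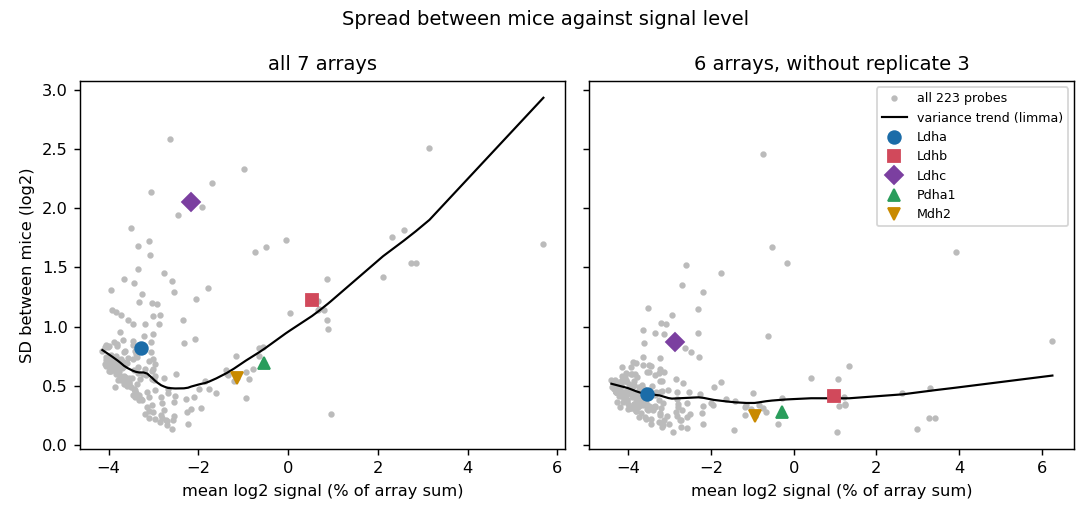
SD of log2 signal between mice against mean log2 signal for all 223 probes (grey), with limma's variance trend (line) and the 5 genes (coloured), over all 7 arrays (left) and without replicate 3 (right). Ldhc lies above the trend in each panel, at an SD of 2.05 and 0.87, while Pdha1 and Mdh2 lie below it.

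The balance between the genes was described by ratios of 2 probes within an array, which a single scaling factor per array leaves unchanged, though quantile normalization can change them. A ratio shows only unequal change between mice. The ratio of Ldhb to Ldha was 27.6, 28.9, 0.719, 10.8, 14.3, 29.0 and 41.7 in replicates 1 to 7. Among the 6 arrays it was lowest in replicates 4 and 5 and highest in replicate 7, a 3.85-fold range, with an SD of 0.73 (log2). Because Ldha lay near the floor on all arrays, its reading is background in unknown part and this ratio is not the ratio of B to A transcripts. The ratio of Pdha1 to Ldha was 11.2, 12.0, 0.781, 6.17, 4.92, 15.5 and 12.4, and apart from replicate 3 it was likewise lowest in replicates 4 and 5. Replicates 4 and 5 also had the higher Ldha readings (0.12%) and the higher floors (0.08%) among the 6 arrays. After subtraction of the floor the SD over the 6 arrays was 0.88 for Ldhb over Ldha and 0.96 for Pdha1 over Ldha, against 0.73 and 0.65 as deposited. With the pseudocount of 0.05% these SDs were 0.60 and 0.49, and with quantile normalization 0.61 and 0.35.

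Ldhc over Ldha sets the probe of the testis isoform against that of the muscle A form. Ldha was measurable on no array and Ldhc only in replicates 3, 4 and 6, so no balance of transcripts can be read from it. This ratio was 0.889, 1.14, 13.7, 3.25, 1.33, 2.67 and 1.43 in replicates 1 to 7. Replicate 3 was highest, at 8.56 times the geometric mean of the others, followed by replicates 4 and 6, the arrays on which Ldhc was measurable. With the floor subtracted its SD over the 6 arrays was 1.50 against 0.73 as deposited, and it was 0.55 with the pseudocount and 0.61 with quantile normalization. The cause was not tested.

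Ratios among the 3 well measured genes varied less as deposited. With quantile normalization the SDs over the 6 arrays were 0.37 for Pdha1 over Ldhb and 0.41 for Mdh2 over Pdha1. That of Pdha1 over Ldha was then lower, at 0.35, while Ldhb over Ldha and Ldhc over Ldha stayed higher, at 0.61 each. Pdha1 over Ldhb, which sets the probe of the pyruvate dehydrogenase subunit against that of the B isoform, was 0.407, 0.416, 1.09, 0.569, 0.345, 0.534 and 0.298 in replicates 1 to 7. It does not measure the flow of pyruvate into mitochondria. Replicates 4 and 6 were highest and replicate 7 lowest among the 6 arrays, a 1.91-fold range, and replicate 3 exceeded all of them. The SD was 0.36 over these 6 arrays and 0.62 over 7 (log2). Of the 703 pairs of the 38 measurable probes, 21.3% had a smaller SD over the 6 arrays, and the median pair had 0.53. In replicate 3 Pdha1 and Ldhb were both within 2 times the floor, so that ratio compares readings near background.

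Mdh2 over Pdha1, the ratio of the 2 mitochondrial enzymes, was 0.515, 0.476, 0.800, 0.676, 1.08, 0.516 and 0.701. Replicate 5 was highest, with the lowest Pdha1 and the highest Mdh2 of the 6 arrays, and replicate 3 fell inside the range of the others. In replicate 3 Mdh2 was at 1.33 and Pdha1 at 1.67 times the floor, so that ratio compares readings near background. The SD was 0.44 over the 6 arrays, above that of 34.1% of pairs, and 0.42 over 7, above that of 12.8%. The SD over 7 arrays includes the replicate 3 reading, so no steady balance is read from it. Mdh2 over Ldhb, a ratio added after the values were seen, was 0.210, 0.198, 0.870, 0.385, 0.374, 0.276 and 0.209, lowest in replicates 1, 2 and 7, the arrays on which Ldhb was brightest. Its SD over the 6 arrays was 0.44, above that of 33.1% of pairs. In replicate 3 both of its probes were near the floor, with Ldhb at 1.53 times.

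**Figure D3:**
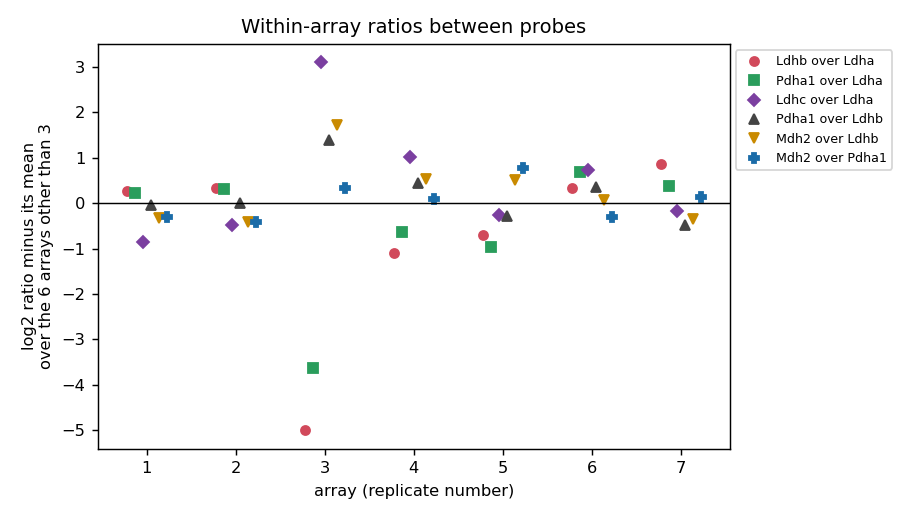
Log2 ratio of 2 probes within each array minus its mean over the 6 arrays other than replicate 3, by replicate number; each symbol is 1 ratio. In replicate 3 Ldhb over Ldha falls by 5.0 and Ldhc over Ldha rises by 3.10, while Mdh2 over Pdha1 stays inside the range of the other arrays. Of the genes in these ratios only Ldhc was measurable in replicate 3, so no ratio there is free of a reading near background.

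The probes whose signals kept the steadiest ratio to a gene were taken from the other 35 named probes measurable on the 6 arrays, by the smallest SD of the log2 ratio. For Ldhb these were Rps29, a ribosomal protein gene (SD 0.26), and Cox8a and Cox5b, cytochrome c oxidase subunits (0.26 and 0.30). Over 7 arrays they were Rps29 (0.25), Cox5b (0.28) and Des, the muscle intermediate filament gene (0.31). Pdha1 kept closest to Myh4, the heavy chain of the fastest fibres (0.17), Mef2c, a muscle transcription factor (0.19), and Acadl, an enzyme of fatty acid oxidation (0.22), and over 7 arrays the same genes stood nearest (0.18, 0.23 and 0.27). Mdh2 kept closest to Fabp3, the fatty acid binding protein of heart and muscle (0.09), Slc2a4, the insulin-responsive glucose transporter (0.14), and Mb, myoglobin (0.15). Over 7 arrays Mdh2 stood nearest to Fabp3 (0.11), the adipocyte fatty acid binding protein gene Fabp4 (0.18) and Pgk1, a glycolytic enzyme (0.21). In replicate 3 Ldhb, Pdha1 and Mdh2 lay near the floor, as did Cox5b, Myh4, Fabp4 and Pgk1 among these neighbours. Probes of a like level that all lie near the floor in replicate 3 keep a steady ratio over 7 arrays. No co-variation of transcripts is therefore read from the SDs over 7 arrays. These are descriptions over 6 or 7 arrays that share hybridisation and scaling, with no test.

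Neighbouring steps of the pathway were followed through fixed lists. Of 12 listed glycolytic genes 4 had a probe. Aldoa, which splits fructose bisphosphate, was the brightest at 10.8% ± 1.7 on the 6 arrays (SD, n = 6), Gapdh and Pgk1, which carry the next oxidation and phosphate transfer, were also measurable on all 6, and Hk1, a hexokinase at the start of the path, was so on none. Aldoa and Gapdh were measurable in replicate 3 as well, at 4.33 and 4.40 times, though lowest there. A list of 12 genes held subunits and regulators of the pyruvate dehydrogenase complex and, as another use of pyruvate, Pcx. Of these Pdha1 and Pcx had a probe, and Pdha2, given above, was not on the list. Pcx, pyruvate carboxylase, which turns pyruvate into oxaloacetate, read 0.06% in replicates 1, 2, 6 and 7, 0.11% and 0.12% in replicates 4 and 5 and 0.59% in replicate 3. It was thus measurable in replicate 3 alone, at 3.93 times, where Pdha1 was at 1.67 times. Mdh2 was the sole probe of 19 listed genes of the citric acid cycle and malate shuttle, and none of 6 pyruvate and lactate transporters had one. Outside the lists, and named after their values were seen, Aldoc, Eno2 and Cox8a, further forms of aldolase, enolase and a cytochrome oxidase subunit, were measurable on the 6 arrays, at 0.15% to 0.40%, 0.23% to 0.44% and 0.32% to 0.56%. In replicate 3 they read 0.19%, 0.18% and 0.17% and were not measurable.

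The respiratory chain list had 3 probes of 17 genes, all measurable on the 6 arrays. Cox6a2, the striated-muscle form of subunit 6a of cytochrome oxidase, was the brightest at 6.43% ± 1.94 (SD, n = 6). Cox4i1, a housekeeping subunit of the same complex, read 1.87% to 2.25% on the 6 arrays and 1.32% in replicate 3, which was 8.80 times the floor there. The regulators Hif1a, Ppara and Tfam (3 of 9 with a probe) were measurable on no array, and Ppara, the brightest, read 0.07% to 0.13% on the 6 arrays. The variance test called no gene of these pathway lists over 7 arrays or without replicate 3. Among the listed cell markers it called Ccna1 without replicate 3, at an SD of 1.45 against a trend of 0.37 (limma adjusted p = 0.036). This call held on the deposited scale only: after median-centring or quantile normalization of the 6 arrays the test called 0 of 223 probes. Ccna1 read 0.09% and 0.08% in replicates 1 and 2, where it was not measurable, and 0.36% to 0.86% in replicates 4 to 7. Its spread thus followed the division of the arrays by rRNA signal, and no difference between mice is read from the call. The median SD over 7 arrays was 1.03 (log2) for the 4 glycolytic probes and 1.15 for the 3 respiratory probes, against 0.69 for all probes and 0.82 for the 5 genes. Without replicate 3 these were 0.27, 0.33, 0.44 and 0.42.

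**Figure D4:**
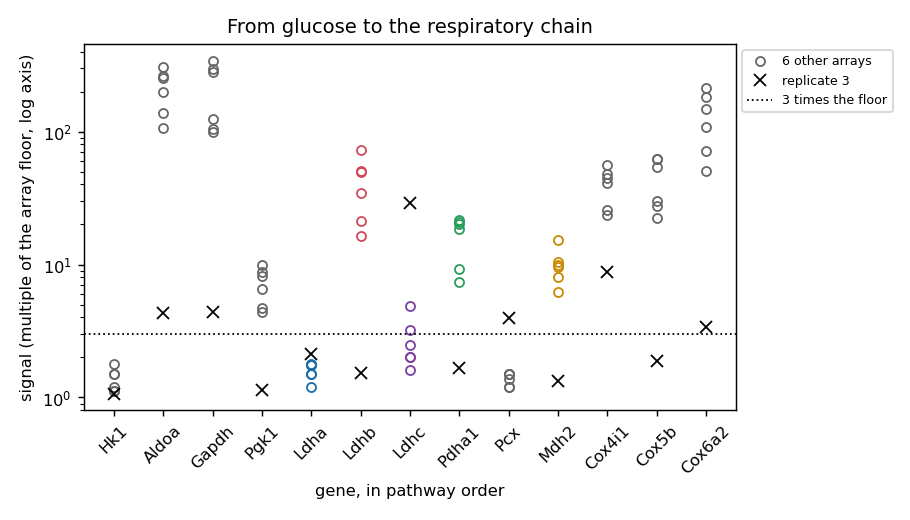
Signal as a multiple of the floor of its array (log axis) for probes from glucose use to the respiratory chain; open circles are the 6 arrays other than replicate 3, crosses are replicate 3 and the dotted line is 3 times the floor. Ldha, Hk1 and Pcx stay below the line on the 6 arrays, and Ldhc and Pcx are the probes whose cross lies above their circles and above the line.

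Markers of fast fibres and of other cells were given by few probes. The fast chains Myh1, Myh2 and Myh4 (3 of 4 listed genes with a probe) summed to 3.85% to 8.77% on the 6 arrays and to 0.83% in replicate 3, with none at 0. The fibroblast marker Fn1, on 2 probes, summed to 0.14% to 0.22% on the 6 arrays, the leukocyte marker Il1b gave 0.04% to 0.09%, and the adipocyte marker Fabp4 0.34% to 0.66%; in replicate 3 they gave 0.32%, 0.17% and 0.18%. Fn1 and Il1b were measurable on no array. In replicate 3, where the floor was highest, none of these fast-fibre, fibroblast, leukocyte and adipocyte markers was measurable. There each Fn1 probe lay at 1.07, Il1b at 1.13 and Fabp4 at 1.2 times the floor, so no cell-type difference is read from these values. No erythrocyte marker had a probe.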

How the data were processed

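Per the labels' protocols, total RNA from cryosections of the soleus belly (4 µg) was reverse transcribed with gene-specific primers and a radioactive nucleotide and hybridised to 1-channel arrays. Scanner, software and background treatment: not given in the sources used here. Spot intensity was deposited on a linear scale after scaling by the authors, since each array sums to 0.998 to 1.00 without 2 probes. They were multiplied by 100, and log2 was taken without further scaling. With arrays, their number limits the precision. Replicates 1 and 2 resembled each other (SD of log2 differences 0.24) and were counted as separate samples.

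Spread was tested with limma 3.58.1 (R 4.3.3) on all probes: an intercept-only fit, each variance against the robust trend over mean level, a one-sided F test and Benjamini-Hochberg adjustment at 0.05. Ratios and levels have no test. Genes outside the 5 were named as the brightest of a pathway list or by the 3 smallest SDs of the log2 ratio; others named were chosen after their values were seen. Members and lists were chosen with earlier results of these data known. Symbols and Entrez identifiers of the 5 genes matched the RefSeq table. Alternatives were median-centring, quantile normalization, a pseudocount of 0.05%, a filter on dim probes, a fit without trend and robustness, other floors, floor subtraction and leaving out each replicate.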

Additional observations from a re-analysis of the deposited data

Results flagged for a closer look

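For each of the 5 genes the log2 signal of replicate 3 stood far from the rest, judged by its gap to the next array divided by the full range (Dixon's ratio). The ratio was 0.682 for Ldhb, 0.615 for Pdha1 and 0.596 for Mdh2, where replicate 3 was lowest, and 0.604 for Ldhc and 0.586 for Ldha, where it was highest. Among the within-array ratios replicate 3 stood apart for Ldhb over Ldha (0.668) and for Pdha1 over Ldha (0.616), as the lowest. Of 10 values examined 7 passed the critical value of that test. Chance gives about 1 in 20, but these values share the same array and are not independent. Ldhc over Ldha, Pdha1 over Ldhb and Mdh2 over Pdha1 did not pass. The cause was not tested.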

How the results depend on the processing

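Of 202 alternatives to the reported values, 201 kept the call or stayed within 1 SD. The exception is the count of genes measurable on every array, which was 0 of 5 over 7 arrays and ran from 0 to 3 when each replicate was left out, with 3 reached without replicate 3 and the cause not tested. Part of the 201 was fixed in advance. For levels and ratios, leaving out 1 of 7 arrays cannot move a mean by 1 SD. Median-centred levels were put back on the deposited scale, so their means could not differ from the reported ones. No paired analysis was possible because the series holds 1 group. No alternative made limma call any of the 5 genes. The limma adjusted p stayed at 0.870 or above for Ldha, Ldhb, Pdha1 and Mdh2. After seeing the data, replicate 3 was also left out together with median-centring, quantile normalization, replicate 1 or replicate 2. Replicate 3 moved several SDs by over 1.5 times: without it the SD over arrays fell from 1.23 to 0.42 for Ldhb and from 2.0 to 0.73 for Ldhb over Ldha. With other floors Ldhb, Pdha1 and Mdh2 were measurable on the same 6 arrays, while Ldhc was so on 1 to 4 of 7 and Ldha on 0 or 1. Values near the floor are limited by the recording step of 0.01%.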
